A study of Arabidopsis thaliana with 16 samples.

Results

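In Arabidopsis thaliana, 34 genes had a mean signal in libraries labelled tcx5/6 of at most 0.6 of the wild-type (WT) mean in seedlings, in leaf and in the shoot apical meristem (SAM), each with a WT mean of at least 50 in all 3 tissues. The genes were chosen by these WT and tcx5/6 values, so the lower levels in those libraries are a description here and carry no test. The tables share 32548 genes, and 15448 of them had a WT mean of at least 50 in all 3 tissues. Of those, 39 (0.252%) met the ratio, and 5 of the 39 were left out by name. RNA was sequenced in 16 libraries, 8 groups of 2. Seedlings were 2 weeks old and were WT, tcx5-/-tcx6-/- (labelled tcx5/6), ddm1-/- (labelled ddm1) or tcx5-/-tcx6-/-ddm1-/- (labelled tcx5/6;ddm1, the triple-labelled libraries below). Leaf and SAM came from WT and tcx5-/-tcx6-/- plants and were 1 month old. All groups are labelled as grown on MS medium plates at 22 °C, in days of 16 h light and nights of 8 h, and the labels do not state the accession or the alleles. The labels do not say whether 2 libraries of a group came from separate plants, so the p-values reflect the spread of these libraries alone, which may be technical.

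The values are deposited signal, read counts brought to 1 common library size by the authors, and they are not divided by gene length. Each seedling library held a total signal of 31.13 to 38.82 M, and those of leaf and SAM held 45.35 to 59.33 M. The deposited totals were thus not equal within a table, and ddm1 seedlings (38.23 and 38.82 M) held more than triple-labelled ones (31.87 and 31.6 M). No source used here gives the read depth behind these totals, so no counting intervals were computed. TCX5 was lower in the libraries labelled tcx5/6 (253.8 against 491.4 in WT seedlings), while TCX6 was higher (771.2 against 157.4). The RNA level thus did not bear out the label for TCX6, but it does not decide whether that label holds, since the alleles are not stated. A higher TCX6 value than in ddm1 was also seen in the triple-labelled libraries (782.5 against 120.2). Below, tcx5/6 and triple-labelled stand for the labels of these libraries. DDM1 averaged 678.6 in WT, 1993 in tcx5/6, 132.0 with ddm1 alone and 611.6 in triple-labelled seedlings. The triple-labelled mean was close to WT but below tcx5/6, as the mean with ddm1 alone was below WT. These levels of RNA do not decide whether the label for DDM1 holds. In WT and tcx5/6 seedlings 35.1% to 39.3% of the low values lay on even steps, against 70.5% to 89.8% in ddm1 and triple-labelled seedlings. No label names kinds of library, and the 2 kinds spoken of here are read from these shares alone. Thus ddm1 and the kind of library cannot be told apart where ddm1 is set beside WT. The comparison of triple-labelled with ddm1 seedlings stays within 1 kind by these shares, though they differed within it (79.2% and 89.8% in ddm1, 76.6% and 70.5% in triple-labelled seedlings). Its difference of means shares no library with the choice of the genes, and it is the comparison tested here. The spread behind its p-values was taken from all 8 seedling libraries, among them the WT and tcx5/6 ones that helped choose the genes. Leaf and SAM were named from the titles of the libraries, because their tissue label reads seedlings. These names were checked with markers. The 8 meristem markers summed to 7467 and 7558 in WT SAM and to 34.81 and 13.45 in WT leaf, though CLV3 read 0 in both WT SAM libraries. The 6 floral markers summed to 15120 and 14530 in WT SAM and to 89.48 and 88.50 in WT leaf, so the SAM libraries also held RNA of floral genes. The 3 leaf markers were higher in WT SAM (874000 and 889700) than in WT leaf (291800 and 285800), so they did not bear out the name leaf.

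TCX5 and TCX6 encode CXC-domain subunits of the plant DREAM complex, a repressor of cell cycle genes and the counterpart of an animal complex of the same name. CXC-domain proteins bind a short element known as CHR, and other subunits, E2F and MYB3R proteins, bind the E2F site and the MSA element. DDM1, a nucleosome remodeller, keeps transposons and many silenced genes methylated. The genes described here were lower in the libraries labelled tcx5/6, unlike the cell cycle genes that the complex is known to repress. By the same ratio, 271 genes (1.75%) were at least 1/0.6 of WT in all 3 tissues.

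The neighbouring pair COR15A and COR15B, the linker histone gene HIS1-3 and the late embryogenesis gene UNE15 are described below. So is AT5G56370, an F-box gene that went the other way in the ddm1 background. Upstream sequences of these 5 genes are therefore shown. Each runs 5′ to 3′ from 250 bases before to 50 bases after the annotated gene start in the RefSeq genome TAIR10.1, which the files' build TAIR10 precedes. Capitals mark TTTGAA (CHR), AACGG (MSA core), CACGTG (G-box) and CCGAC (CRT/DRE core), on either strand.
COR15A, chr2:17712281-17712580, minus strand: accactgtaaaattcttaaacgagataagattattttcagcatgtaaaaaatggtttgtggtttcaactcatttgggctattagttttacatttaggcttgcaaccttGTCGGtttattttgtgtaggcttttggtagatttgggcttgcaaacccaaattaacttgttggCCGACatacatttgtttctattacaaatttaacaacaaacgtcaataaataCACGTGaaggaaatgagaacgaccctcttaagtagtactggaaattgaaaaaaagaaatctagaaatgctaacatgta
COR15B, chr2:17710384-17710683, minus strand: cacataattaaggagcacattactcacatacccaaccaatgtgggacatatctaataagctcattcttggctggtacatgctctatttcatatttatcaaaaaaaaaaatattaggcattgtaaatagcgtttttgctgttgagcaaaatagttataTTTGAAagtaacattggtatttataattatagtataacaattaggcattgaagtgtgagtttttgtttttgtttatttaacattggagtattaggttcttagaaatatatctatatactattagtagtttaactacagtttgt
HIS1-3, chr2:7845673-7845972, plus strand: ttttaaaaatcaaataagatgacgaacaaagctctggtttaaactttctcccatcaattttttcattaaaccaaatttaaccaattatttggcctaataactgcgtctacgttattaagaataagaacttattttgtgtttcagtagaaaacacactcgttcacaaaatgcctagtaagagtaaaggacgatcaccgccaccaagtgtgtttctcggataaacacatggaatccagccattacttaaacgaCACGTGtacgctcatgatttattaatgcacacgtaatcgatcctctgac
UNE15, chr4:7883877-7884176, minus strand: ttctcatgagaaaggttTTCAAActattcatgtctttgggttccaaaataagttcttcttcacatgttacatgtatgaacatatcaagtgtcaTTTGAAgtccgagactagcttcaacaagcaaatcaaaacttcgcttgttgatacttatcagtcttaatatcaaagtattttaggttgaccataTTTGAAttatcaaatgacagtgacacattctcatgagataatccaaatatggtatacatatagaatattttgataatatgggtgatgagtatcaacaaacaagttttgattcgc
AT5G56370, chr5:22837923-22838222, minus strand: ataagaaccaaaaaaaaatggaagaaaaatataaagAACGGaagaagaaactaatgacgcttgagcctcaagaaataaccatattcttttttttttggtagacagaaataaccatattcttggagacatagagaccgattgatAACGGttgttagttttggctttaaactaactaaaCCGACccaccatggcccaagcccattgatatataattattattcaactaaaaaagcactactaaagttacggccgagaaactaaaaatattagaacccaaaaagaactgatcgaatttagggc

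COR15A held its CRT/DRE cores 142 and 79 bases before the start and its G-box 28 bases before it. COR15B held 1 CHR hexamer 93 bases before its start, and nearly all of its upstream bases lie inside the annotated COR15A gene, which ends 7 bases away. UNE15 held 3 CHR hexamers, 233, 157 and 64 bases before the start. Over all 34 windows, searched on both strands, the CHR hexamer TTTGAA was found in 17 (50%), against 43.4% of 32546 windows of the same kind. The MSA core AACGG was in 10 (29.4%, against 24.5%) and the site II element TGGGCC in 6 (17.6%, against 14.3%). None of the 34 held TTTCCCGC, TTTGGCGC, TTTCCCGG or TTTGGCGG, the E2F sites searched, which were in 2.31% of all windows. The G-box was in 2 (5.88%, against 7.11%), the evening element AAATATCT in 3 (8.82%, against 5.36%) and the telo-box AAACCCTA in 2 (5.88%, against 6.19%). The CRT/DRE core, looked for after the values were seen, was in 6 (17.6%, against 14.9%). These are matches of letters, not binding sites, and the searched motifs do not overlap each other in the windows shown.

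The tcx5/6 libraries were at 0.438 of WT in seedlings, 0.422 in leaf and 0.408 in SAM, as medians over the 34 genes that these ratios selected. In all 34, both tcx5/6 libraries were below both WT libraries in each tissue, as the choice of the genes favours, against 14.3% of the 15448 genes. Ratios of at most 0.6 were found in 1.73% of genes with a WT mean of at least 50 in seedlings, 7.25% in leaf and 5.79% in SAM. At least 2-fold lower means in every tissue were found for 11 of the 34. The lowest of the 3 ratios was in SAM for 13 genes, in leaf for 13 and in seedlings for 8.

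**Figure D1:**
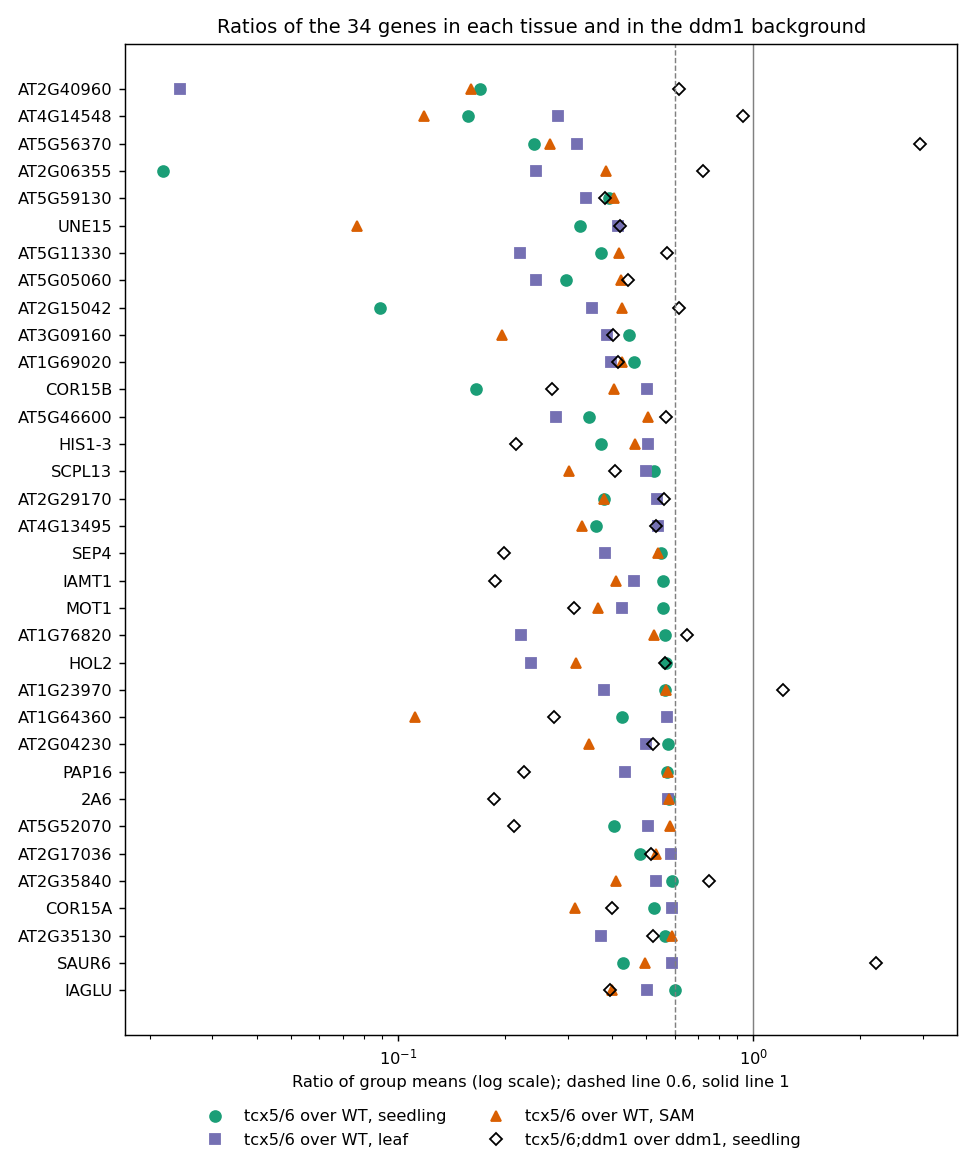
Ratio of group means for each of the 34 genes on a log scale: tcx5/6 over WT in seedling (circles), leaf (squares) and SAM (triangles), and triple-labelled over ddm1 seedlings (open diamonds), with 2 libraries a group. All coloured symbols lie at or left of 0.6, where the choice of genes put them, and 25 of 34 diamonds do too, while those of SAUR6, AT5G56370 and AT1G23970 (not called) lie right of 1.

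AT2G40960, which encodes an R3H-domain protein named for binding single-stranded nucleic acid, had the lowest value of the 34 for the largest of its 3 ratios, 0.170, though other genes had lower ratios in seedlings and in SAM. WT read 354.9 and 359.3 in seedlings against 60.29 and 60.98 in tcx5/6. In leaf WT read 301.3 and 288.5 against 11.87 and 2.436, and in SAM 564.5 and 634.8 against 91.46 and 101.4. The groups lay far apart in each tissue, with the lowest ratio, 0.0243, in leaf. AT4G14548, a noncoding RNA, read 87.65 and 78.80 in WT against 11.24 and 14.89 in tcx5/6 seedlings. It read 297.6 and 222.6 against 82.47 and 63.88 in leaf, and 72.75 and 68.06 against 1.746 and 14.90 in SAM. Its SAM libraries labelled tcx5/6 differed widely from each other, but both stayed well under WT. AT2G06355, a 200-base long noncoding RNA, was close to 0 in tcx5/6 seedlings, at 0.1035 and 2.773 against 62.25 and 69.76 in WT. In leaf it read 280.6 and 342.3 in WT against 75.95 and 76.83, and in SAM 156.6 and 126.7 against 66.38 and 42.44. The neighbouring leucine-rich repeat gene AT2G15042, 2025 bases away on the other strand, was also lowest in seedlings, where it read 277.5 and 275.1 in WT against 22.24 and 27.02. Its leaf values were 1851 and 1841 against 623.0 and 673.3, and its SAM values 811.5 and 841.2 against 356.9 and 350.3.

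Some of the genes encode proteases or a relative of protease inhibitors. The subtilase AT5G59130, a serine protease of the subtilisin family, read 560.2 and 640.8 in WT against 236.7 and 233.5 in tcx5/6 seedlings. Its leaf values were 2604 and 2482 against 830.7 and 893.8, and its SAM values 1300 and 1325 against 522.9 and 537.5, so its ratio hardly changed between tissues (0.339 to 0.404). The prolyl oligopeptidase AT1G69020 had ratios of 0.397 to 0.462 and the serine carboxypeptidase-like gene SCPL13 of 0.303 to 0.526. AT5G05060, a protein of the cystatin superfamily, whose best known members inhibit cysteine proteases, read 839.7 and 866.9 in WT against 224.5 and 281.7 in seedlings. It read 2443 and 2488 against 657.3 and 552.2 in leaf, and 3153 and 3194 against 1411 and 1289 in SAM.

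Among other enzymes, the FAD/NAD(P)-binding oxidoreductase AT5G11330 read 2070 and 2036 in WT against 782.6 and 747.7 in seedlings. In leaf it read 4929 and 4539 against 1045 and 1043, and in SAM 2324 and 2320 against 975.2 and 966.1. Replicates of this gene agreed closely, and leaf had the lowest ratio (0.221). The methyltransferase HOL2 had ratios of 0.567 in seedlings, 0.236 in leaf and 0.318 in SAM. The Rossmann-fold protein AT2G29170 had ratios of 0.379 to 0.537, the sucrose phosphatase family member AT2G35840 of 0.411 to 0.589, the purple acid phosphatase PAP16 of 0.436 to 0.575 and the 2-oxoglutarate-dependent oxygenase 2A6 of 0.577 to 0.578.

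Of the genes of auxin, IAMT1 methylates the auxin indole-3-acetic acid (IAA) and IAGLU joins it to glucose, and SAUR genes, such as SAUR6 (AT2G21210), are small genes known for rapid induction by auxin. IAMT1 had ratios of 0.411 to 0.556, IAGLU of 0.399 to 0.6 and SAUR6 of 0.430 to 0.591. Transport was represented by the molybdate transporter MOT1 (0.366 to 0.558) and by AT5G46600 of the aluminum-activated malate transporter family (0.279 to 0.504).

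Cold and water-stress genes were COR15A, COR15B, HIS1-3 and UNE15. COR15A and COR15B encode chloroplast proteins that protect membranes during freezing, HIS1-3 encodes a linker histone induced by drought, and UNE15 belongs to the late embryogenesis abundant (LEA) proteins, which accumulate in drying seeds. COR15B had ratios of 0.166 in seedlings, 0.501 in leaf and 0.405 in SAM, and COR15A of 0.526, 0.590 and 0.315. HIS1-3 had ratios of 0.373 to 0.504. UNE15 read 613.4 and 569.6 in WT against 189.1 and 196.4 in tcx5/6 seedlings. Its leaf values were 534.4 and 476.7 against 197.5 and 223.4, and its SAM values 312.9 and 255.6 against 25.59 and 18.09, where the ratio was 0.0768.

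The rest hold regulators and genes of little known function. SEP4 is a MADS-box transcription factor that helps specify floral organs, and its ratios were 0.381 to 0.550. The F-box family, whose proteins choose targets for ubiquitin ligases, had 3 members: AT5G56370 (0.242 to 0.319), AT2G04230 (0.344 to 0.574) and AT2G17036 (0.480 to 0.588). AT5G56370 read 102.5 and 140.0 in WT against 37.30 and 21.26 in seedlings, 116.1 and 111.5 against 30.47 and 42.04 in leaf, and 157.7 and 225.3 against 62.59 and 39.72 in SAM. The remaining ratios were 0.197 to 0.446 for the RNA-binding protein gene AT3G09160, 0.222 to 0.564 for AT1G76820 of the translation factor eIF-2 family, 0.374 to 0.590 for the tetratricopeptide repeat gene AT2G35130, and 0.406 to 0.582 for the Agenet-domain gene AT5G52070. AT1G23970 of the DUF626 family had 0.380 to 0.568, and the uncharacterized AT1G64360 had 0.111 to 0.572.

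The most abundant noncoding RNA of the group, AT4G13495, read 11500 and 10980 in WT against 4016 and 4095 in tcx5/6 seedlings. It read 5814 and 5839 against 2960 and 3329 in leaf, and 1558 and 1824 against 575.1 and 536.1 in SAM. This transcript contains the precursors MIR5026 and MIR850 and overlaps the precursor MIR863, all on its own strand. In seedlings MIR5026 averaged 459.5 in WT and 213.9 in tcx5/6, MIR850 averaged 773.5 and 327.7, and MIR863 averaged 125.8 and 52.29. Reads of a precursor and of AT4G13495 cannot be told apart, and the mature miRNAs were not measured. Their mature sequences from TAIR10.1, plus strand, are printed because these precursors lie in or across the transcript, with the seed (bases 2 to 8) in capitals. Of the 4, miR863-3p lies beyond the annotated end of AT4G13495, and whether the transcript gives rise to any of them was not tested.
miR5026, chr4:7844612-7844632: aCTCATAAgatcgtgacacgt
miR850, chr4:7845756-7845777: tAAGATCCggactacaacaaag
miR863-5p, chr4:7846644-7846664: tTATGTCTtgttgatctcaat
miR863-3p, chr4:7846835-7846855: tTGAGAGCaacaagacataat
The 4 seeds differ from each other.

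The question left by the choice of the genes is whether they were also lower in the libraries labelled tcx5/6;ddm1 than in those labelled ddm1. The triple-labelled seedlings were compared with ddm1 seedlings by limma-trend on log2(value + 1), fitted on 25016 genes with Benjamini-Hochberg adjustment over all of them. Calls needed an adjusted p under 0.05. Of the 34 genes, 25 were called lower, 2 higher and 7 were not called. Of all genes tested, 21.6% were called lower and 17.7% higher. Among the 15448 genes with a WT mean of at least 50 in all 3 tissues, 25.8% were called lower and 20.7% higher. The median log2 difference of the 34 was -1.19, against -0.02 over all genes tested. Both triple-labelled libraries were below both ddm1 libraries for 29 of the 34, against 41% of genes with a ddm1 mean of at least 50, and above both for 2, against 31.1%. Of the 31 genes with a ddm1 mean of at least 50, 23 were at or below 0.6 of ddm1, against 12.4% of all genes with such a mean. At 1/0.6 or more was SAUR6 (2.21), against 8.69% of all genes with such a mean. Library ddm1 replicate 1 stood apart in seed storage markers, whose 6 genes summed to 2283 there and to 31.25 in replicate 2. Without it 24 of the 34 were called lower, against 19% of all genes. Such a fit leaves 1 library in an arm, which is assumed to vary like the other groups.

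IAMT1 had the largest fall. It read 399.9 and 322.6 in ddm1 and 91.85 and 43.58 in triple-labelled seedlings, against 220.6 and 256.5 in WT and 118.7 and 146.5 in tcx5/6. Its log2 difference was -2.49 (SE 0.33, limma-trend adjusted p = 0.00064), and the triple-labelled libraries were the lowest of the 4 genotypes. SEP4 behaved likewise, at 179.4 and 253.4 in ddm1 and 43.41 and 42.46 in triple-labelled seedlings, against 219.4 and 256.4 in WT and 122.5 and 139.4 in tcx5/6. It fell by 2.29 on the log2 scale (SE 0.22, limma-trend adjusted p = 0.00016). The 6 floral markers had higher sums in triple-labelled (1038 and 944.4) than in ddm1 seedlings (547.3 and 501.1). Of the 6, limma-trend called 2 higher, AP3 and SEP3, against 17.7% of all genes, and 4 were not called. Among those not called, AG had a lower mean in triple-labelled (12.93) than in ddm1 seedlings (26.59). The part of these markers in the SEP4 result was not tested.

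HIS1-3 read 532.4 and 681.7 in WT seedlings, 215.5 and 237.1 in tcx5/6 ones, 1231 and 1472 with ddm1 alone, and 215.0 and 365.5 in triple-labelled seedlings. The ddm1 libraries were highest, and of the triple-labelled ones 1 was level with the tcx5/6 libraries and 1 above them (log2 -2.26 against ddm1, SE 0.24, limma-trend adjusted p = 0.00022). AT1G64360, the gene with the smallest p of the 34, had the same order. It read 364.8 and 440.3 in WT seedlings, 178.9 and 163.9 in tcx5/6 ones, 728.3 and 805.0 with ddm1 alone, and 195.9 and 224.8 in triple-labelled seedlings (log2 -1.86 against ddm1, SE 0.14, limma-trend adjusted p = 5.6e-05).

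AT5G59130, the subtilase, read 850.7 and 697.2 in ddm1 against 303.2 and 288.9 in triple-labelled seedlings (log2 -1.38, SE 0.13, limma-trend adjusted p = 0.00012). SCPL13 read 1770 and 1881 in WT seedlings, 904.3 and 1017 in tcx5/6 ones, 1006 and 1319 with ddm1 alone, and 527.6 and 418.0 in triple-labelled seedlings. It fell by 1.29 (SE 0.15, limma-trend adjusted p = 0.00037), and ddm1 and tcx5/6 seedlings lay at a similar level. The oxidoreductase AT5G11330 read 2044 and 2207 in ddm1 against 1183 and 1245 (log2 -0.81, SE 0.07, limma-trend adjusted p = 9.8e-05). AT2G35130 read 1494 and 1537 in WT seedlings, 902.6 and 812.4 in tcx5/6 ones, 400.7 and 438.0 with ddm1 alone, and 230.8 and 206.1 in triple-labelled seedlings. It was lower in each mutant than in WT and lowest in the triple-labelled one (log2 -0.94 against ddm1, SE 0.10, limma-trend adjusted p = 0.00028).

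The other genes called lower spanned log2 differences from -2.32 to -0.42. The widest were 2A6 (-2.32), PAP16 (-2.08), AT5G52070 (-2.08), MOT1 (-1.88) and COR15B (-1.86), all by limma-trend with adjusted p between 0.00082 and 0.021. IAGLU (-1.32), COR15A (-1.30), AT1G69020 (-1.25) and AT5G05060 (-1.19) also fell by more than 1. The smallest falls were in AT2G04230 (-0.94), AT4G13495 (-0.91), HOL2 (-0.82), AT2G29170 (-0.82), AT2G40960 (-0.69), AT2G15042 (-0.68), AT1G76820 (-0.61) and AT2G35840 (-0.42). The loss of 1 library ended 6 of the 27 calls. COR15A had an adjusted p of 0.059 without ddm1 replicate 1 and 0.065 without triple-labelled replicate 2. Without ddm1 replicate 2 the adjusted p was 0.14 for AT5G56370, 0.14 for AT2G15042, 0.095 for AT2G29170, 0.1 for MOT1 and 0.079 for AT1G76820, and without triple-labelled replicate 1 it was 0.15, 0.12, 0.073 and 0.065 for AT5G56370, AT2G15042, AT2G29170 and AT1G76820.

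Not called were UNE15 (log2 -1.62, limma-trend adjusted p = 0.089), AT3G09160 (-1.60, 0.078), AT2G17036 (-1.19, 0.095), AT5G46600 (-0.81, 0.068), AT2G06355 (-0.49, 0.5), AT4G14548 (-0.085, 0.83) and AT1G23970 (0.24, 0.46). In UNE15 the triple-labelled libraries disagreed, at 209.2 and 37.30, and 1 of them lay within the ddm1 values of 392.7 and 191.8. Without triple-labelled replicate 1, the higher of the pair in each of these genes, the adjusted p was 0.0018 for UNE15, 0.0019 for AT3G09160 and 0.0023 for AT2G17036, values that follow from which library was left out.

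The genes that went the other way were SAUR6 and AT5G56370, both of which were low in ddm1. SAUR6 read 1825 and 1951 in WT seedlings, 764.6 and 858.8 in tcx5/6 ones, 310.1 and 356.4 with ddm1 alone, and 746.8 and 728.4 in triple-labelled seedlings. It rose by 1.15 on the log2 scale over ddm1 (SE 0.10, limma-trend adjusted p = 9.4e-05), to 0.909 of the tcx5/6 mean. AT5G56370 read 10.38 and 5.705 in ddm1 and 29.44 and 17.80 in triple-labelled seedlings, which was 0.807 of its tcx5/6 mean. Its log2 difference was 1.45 (SE 0.46, limma-trend adjusted p = 0.036).

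**Figure D2:**
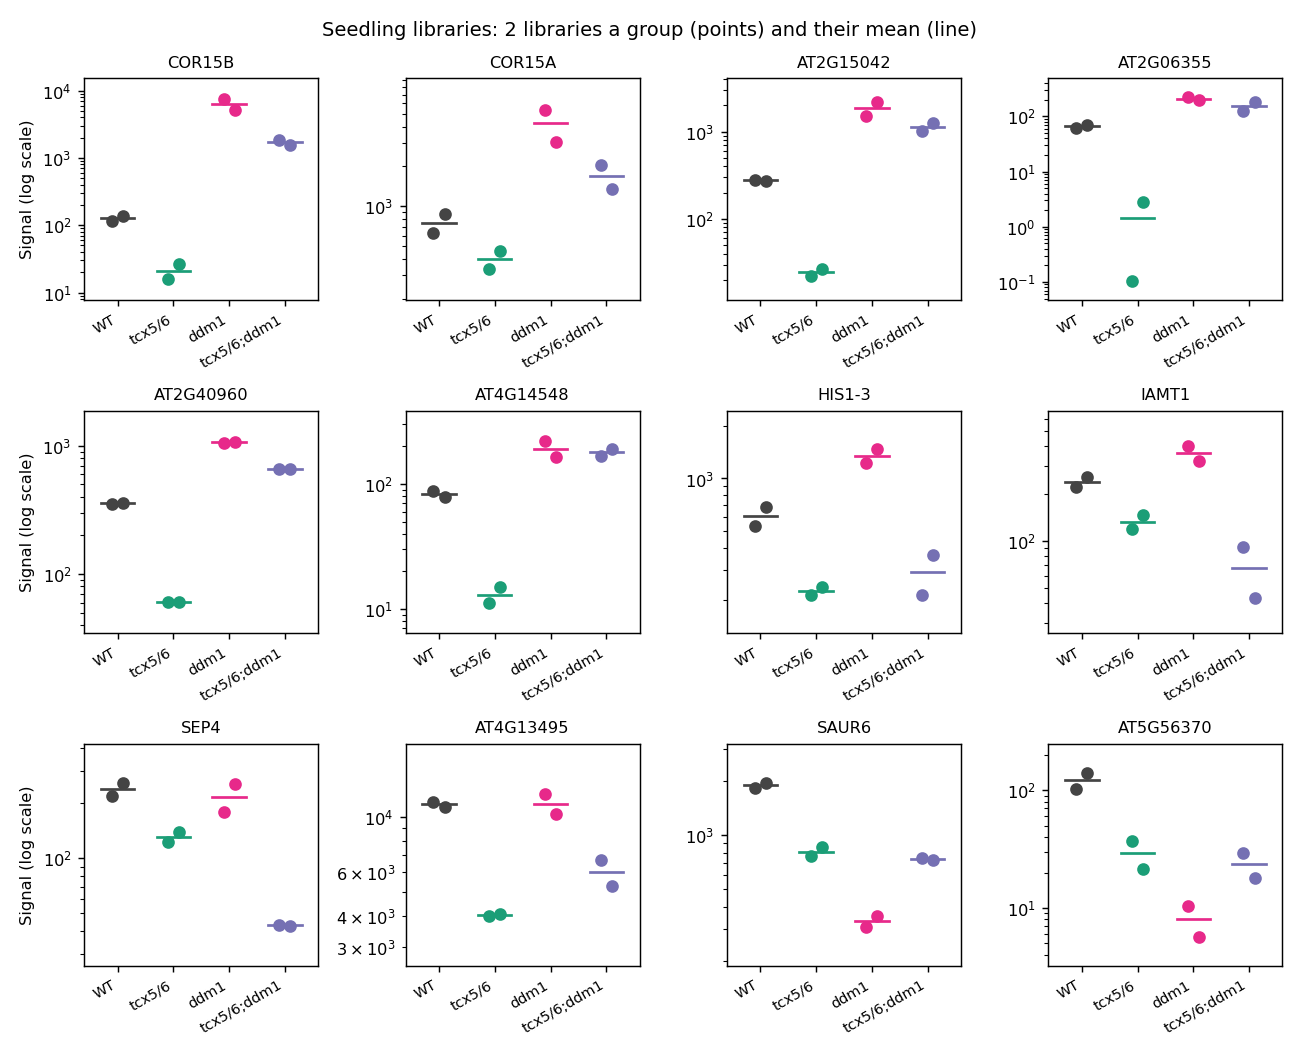
Deposited signal (log axis) of 12 of the 34 genes in the 8 seedling libraries, with a point for each library and a line for the mean of 2. In the top row ddm1 lies far above WT for COR15B and COR15A, and in the bottom row ddm1 is the lowest group for SAUR6 and AT5G56370.

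In ddm1 seedlings the 34 genes did not share a direction relative to WT. Ratios of ddm1 to WT ranged from 0.0663 to 49.2, with a median of 0.994. Of the 34, 10 were at or below 0.6, against 14.4% of genes with a WT mean of at least 50, 10 were at least 1/0.6, against 14%, and 14 lay between. Both ddm1 libraries were below both WT libraries for 15 genes, against 42.9%, and above both for 13, against 38.8%. These WT libraries also helped choose the genes, and the ddm1 libraries are of the other kind of library, so the ddm1 ratios are given without a test. Genes of the circadian clock also differed between ddm1 and WT seedlings. Of 12 listed, limma-trend called 8 higher and 4 lower, against 26.3% and 23.3% of all genes, with FKF1 at log2 7.48 and LHY at -4.71. The part of the clock in the ddm1 ratios was not tested.

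COR15B had the highest ratio. It read 115.2 and 139.3 in WT seedlings, 15.77 and 26.40 in tcx5/6 ones, 7438 and 5090 with ddm1 alone, and 1831 and 1560 in triple-labelled seedlings. The triple-labelled mean was thus 0.271 of ddm1 and yet 13.3-fold the WT mean. COR15A read 631.1 and 871.3 in WT seedlings, 336.0 and 454.6 in tcx5/6 ones, 5381 and 3081 with ddm1 alone, and 2052 and 1340 in triple-labelled seedlings, so ddm1 was 5.63-fold WT. AT2G15042 stood at 1526 and 2155 in ddm1, 6.66-fold WT, and at 1011 and 1269 in triple-labelled seedlings, 46.3-fold its tcx5/6 mean.

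The lowest ratios were those of AT5G56370 (0.0663), AT3G09160 (0.161) and SAUR6 (0.177). AT3G09160 read 133.5 and 135.9 in WT seedlings, 56.51 and 63.55 in tcx5/6 ones, 25.20 and 18.27 with ddm1 alone, and 15.00 and 2.449 in triple-labelled seedlings. For this gene every mutant group lay below WT, and the triple-labelled libraries were lowest.

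Sorted by the ddm1 ratio, the triple-labelled values took different positions. All 14 genes with a ddm1 ratio between 0.6 and 1/0.6 were called lower in triple-labelled than in ddm1 seedlings, and all 14 had a triple-labelled mean under the WT mean. Of the 10 genes with a ddm1 ratio of at least 1/0.6, 7 were called lower and 3 were not called, but 8 of the 10 had triple-labelled means above WT, and all 10 had means above tcx5/6. These were AT2G40960, AT4G14548, AT2G06355, AT2G15042, COR15B, COR15A, AT5G46600 and AT2G29170, while HIS1-3 (0.478 of WT) and AT1G64360 (0.523) stayed under WT. Of the 10 genes with a ddm1 ratio of at most 0.6, 4 were called lower, 2 higher and 4 were not called, and none had a triple-labelled mean above WT. The sorting uses the same ddm1 libraries as the comparison with the triple-labelled ones, so the difference between these sets was not tested. Over all 34 genes the triple-labelled mean was below WT for 26 and below tcx5/6 for 18.

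Some genes with very low tcx5/6 values lay above WT in triple-labelled seedlings. The tcx5/6 values helped choose the genes, and tcx5/6 and triple-labelled seedlings are of different kinds of library, so the ratios between them are a description. AT2G06355 read 221.2 and 200.1 in ddm1 and 124.4 and 180.0 in triple-labelled seedlings, 106-fold its tcx5/6 mean. AT2G40960 read 1057 and 1075 in ddm1 and 659.1 and 659.4 in triple-labelled seedlings, 10.9-fold tcx5/6. AT4G14548 read 219.5 and 164.3 in ddm1 and 167.3 and 191.5 in triple-labelled seedlings, 13.7-fold tcx5/6. In these genes every ddm1 and triple-labelled library lay above every WT library, and every tcx5/6 library below.

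**Figure D3:**
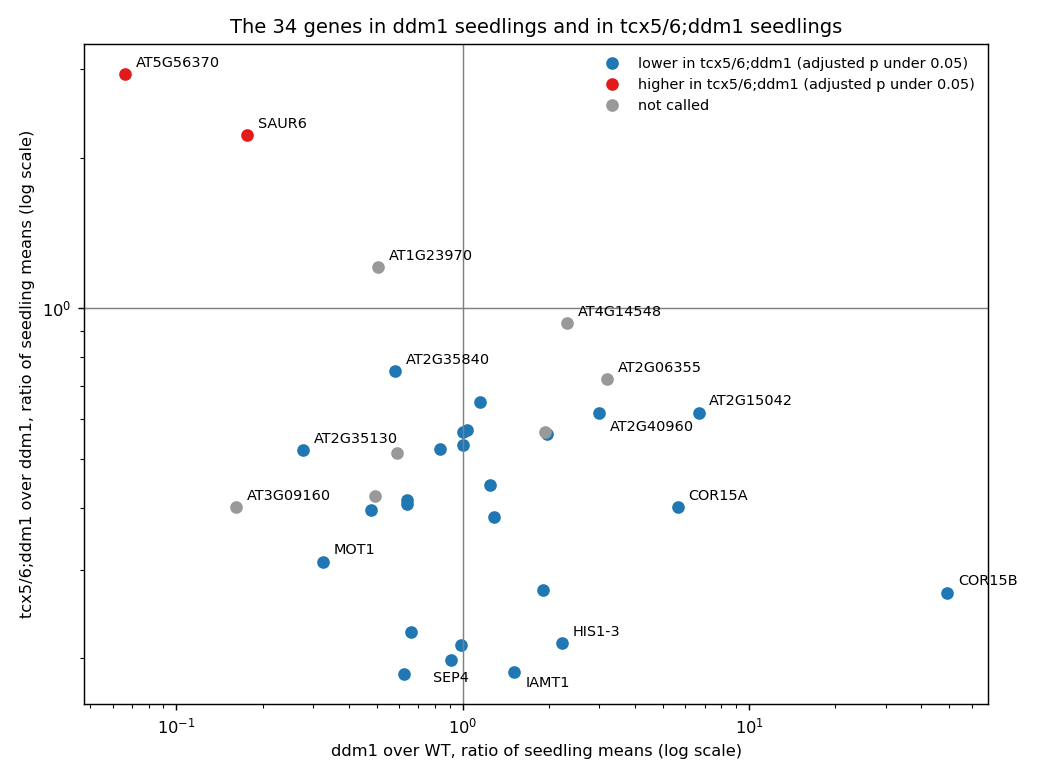
Each of the 34 genes by its ratio of ddm1 to WT seedlings (x, log scale) and of triple-labelled to ddm1 seedlings (y, log scale), coloured by the limma-trend call of triple-labelled against ddm1. The 14 genes near the vertical line all lie below the horizontal one, and the 2 genes called higher, SAUR6 and AT5G56370, sit at the upper left. The axes share the ddm1 libraries.

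Leaf and SAM were sequenced in 1 table and can be set side by side in WT. The WT mean was at least 2-fold higher in SAM for 5 of the genes and at least 2-fold higher in leaf for 12, and the other 17 lay within 2-fold. AT1G64360 read 23930 and 23970 in WT leaf and 99.84 and 132.9 in WT SAM, 206-fold apart, and in tcx5/6 it read 14160 and 13240 in leaf and 9.343 and 16.57 in SAM. HIS1-3 read 2900 and 2817 in WT leaf and 43.58 and 60.14 in WT SAM, against 1513 and 1370 in tcx5/6 leaf and 17.78 and 30.37 in tcx5/6 SAM. Leaf and SAM did not overlap for either gene, in either genotype. AT2G29170 was 17.3-fold higher in WT leaf, IAGLU 6.35-fold, COR15A 5.42-fold and COR15B 4.03-fold. In the other direction IAMT1 was 17.5-fold higher in WT SAM, at 899.8 and 870.2 against 55.27 and 46.05 in leaf. In tcx5/6 it read 356.8 and 371.5 in SAM against 17.99 and 28.69 in leaf. HOL2 (4.20-fold), AT2G35130 (3.42-fold), SCPL13 (2.97-fold) and AT2G40960 (2.03-fold) were also higher in WT SAM. In bulk tissue, fewer cells of a type and less RNA per cell cannot be told apart. The sum of the 3 leaf markers was lower in tcx5/6 SAM (603400 and 617800) than in WT SAM (874000 and 889700). In tcx5/6 leaf this sum (403800 and 392100) was higher than in WT leaf, though RCA was not (37330 against 39650). The part of these markers in the lower values of leaf-high genes in SAM was not tested.

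**Figure D4:**
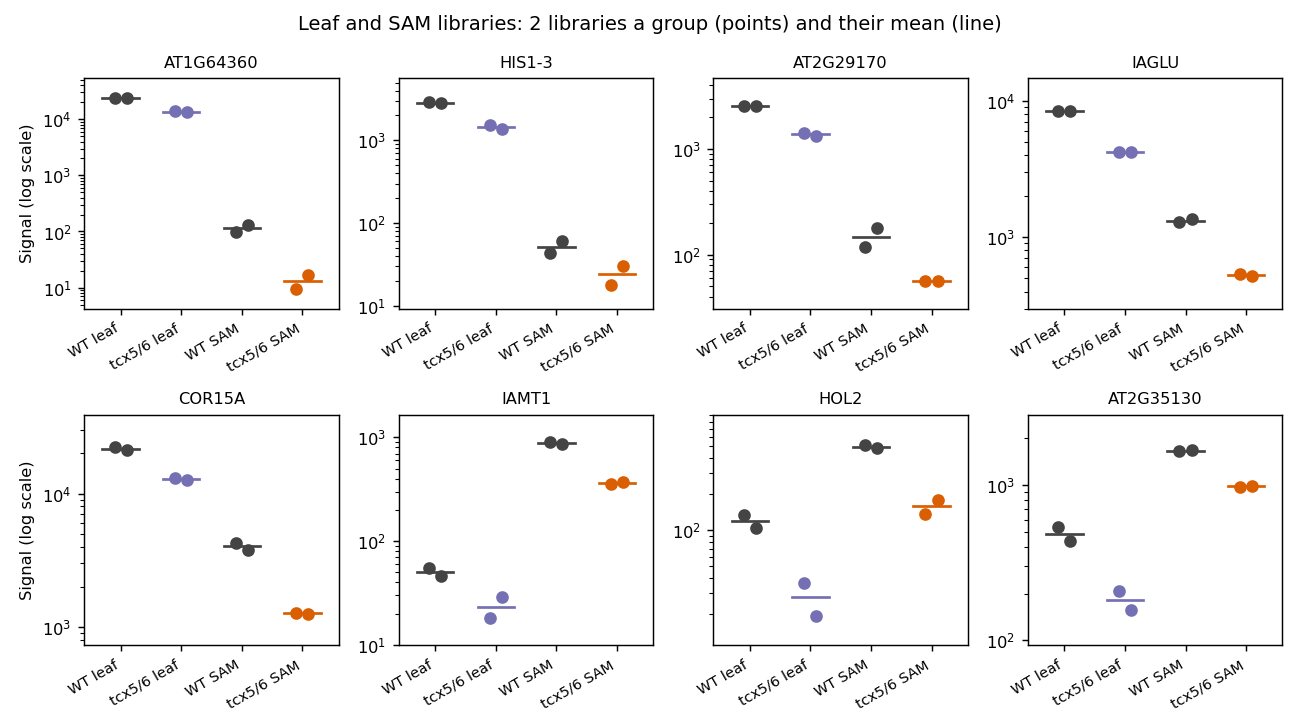
Deposited signal (log axis) of 8 of the 34 genes in the leaf and SAM libraries, with a point for each library and a line for the mean of 2. The first 5 genes are higher in leaf (AT1G64360 by 206-fold in WT) and the last 3 are higher in SAM (IAMT1 by 17.5-fold).

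By position, 16 of the 34 genes (47.1%) were on chromosome 2, where 15.1% of the 15448 genes lie. Before the 5 genes were left out by name, the share was 16 of 39 (41%). The other genes were divided as 5 on chromosome 1, 2 on chromosome 3, 4 on chromosome 4 and 7 on chromosome 5. Chromosome 2 held 19.2% of the genes at or below 0.6 of WT in seedlings, 15.5% of those in leaf and 17.6% of those in SAM, and 12.9% of the 271 genes higher in all 3 tissues. TCX6 is itself on chromosome 2, at 8.68 Mb, and the genes described here run from 1.13 Mb (SEP4) to 18.19 Mb (HOL2) with HIS1-3 at 7.85 Mb and SAUR6 at 9.08 Mb on its sides. In the triple-labelled seedlings 13 of the 16 were called lower than in ddm1, against 24.5% of the chromosome 2 genes. On the other chromosomes 12 of the 18 were called lower, against 25.6% to 27.1% of the genes of each chromosome. Whether the plants carry other differences on chromosome 2 was not tested.

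**Figure D5:**
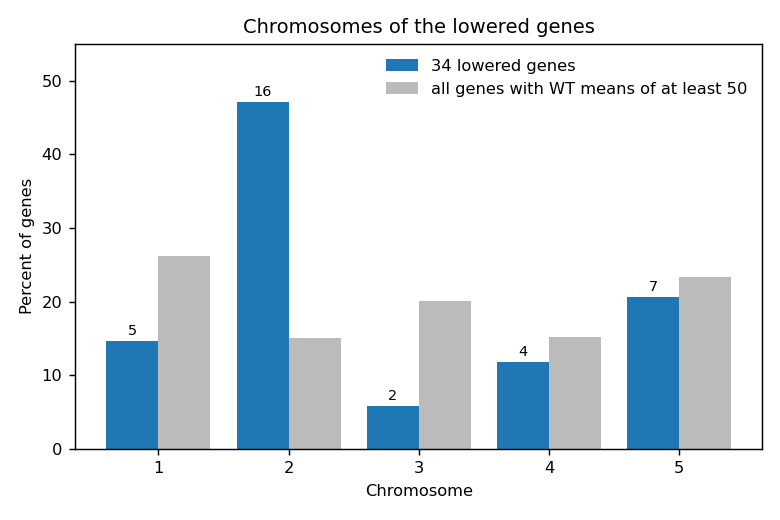
Percent of the 34 lowered genes (blue, with their number above the bar) and of the 15448 genes with WT means of at least 50 in all 3 tissues (grey) on each chromosome. Chromosome 2 holds 47.1% of the lowered genes and 15.1% of the 15448, which include them.

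Only COR15B with COR15A, 7 bases apart, and AT2G06355 with AT2G15042 were adjacent pairs within the 34. Of 28 other adjacent genes with WT means of at least 50 in all 3 tissues, 0 were at or below 0.6 in all 3, 21 lay between 0.6 and 1/0.6 in all 3, and 5 were at or below 0.6 in at least 1. Another gene overlapped 12 of the 34 in the annotation, on the opposite strand for 8. No source used here says whether counting used strand, so reads of such pairs cannot be told apart. COR15B overlaps AT2G42520, whose means were 1325 in WT and 1277 in tcx5/6 seedlings and 1664 and 1949 in ddm1 and triple-labelled ones, unlike those of COR15B. IAGLU overlaps AT4G15545, whose means went from 8025 in ddm1 to 4493 in triple-labelled seedlings, and its part in the IAGLU result was not tested. More than 5% of the 32-base words of the exons occur elsewhere in the genome for 6 genes: AT1G76820 (46.2%), AT5G05060 (28.7%), AT1G23970 (27.9%), AT2G29170 (23.3%), AT2G40960 (21.9%) and UNE15 (13.3%). Their values may hold reads of the copies. COR15A and COR15B share no such word with each other or with any other place.

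Other genes of the cold response were followed on a list of 12 that holds COR15A and COR15B. Of the 10 others, none was called by limma-trend in tcx5/6 against WT seedlings, where 4.35% of all genes were lower and 7.26% higher. In leaf 5 were lower and 1 higher, and in SAM 4 were lower and 2 higher, against 21.4% lower and 21.3% higher of all genes in leaf and 14.5% and 15.6% in SAM. Lower in leaf was ERD10 (log2 -0.42, limma-trend adjusted p = 6.2e-05), a dehydrin, and higher was KIN1 (1.58, 0.0013), a small cold-induced protein, which was lower in SAM (-2.63, 0.00019). Against ddm1, triple-labelled seedlings were lower for 6 of the 10 and higher for CBF3, a transcription factor that activates COR genes (1.46, 0.01), against 21.6% lower and 17.7% higher of all genes. The falls included COR6.6 (-1.39, SE 0.10, limma-trend adjusted p = 4.5e-05) and KIN1 (-1.47, SE 0.17, limma-trend adjusted p = 0.00039). In ddm1 against WT, where the genotype and the kind of library cannot be told apart, log2 differences had a median of 1.81 over the 10, with 3.86 for COR6.6 and 2.1 for RD29A, a dehydration-induced gene.

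Several gene groups and some markers differed between triple-labelled and ddm1 seedlings. In this comparison 21.6% of all genes were called lower and 17.7% higher. The 3 leaf markers summed to 1670000 and 1638000 in ddm1 and to 806300 and 674000 in triple-labelled seedlings. Of these 3, 2 were called lower and RBCS1A was not called. Among 12 photosynthesis genes 11 fell, such as PSAF (-1.41, limma-trend adjusted p = 8.5e-05) of photosystem I. Root markers summed to 33220 and 30400 in ddm1 and to 20440 and 27290 in triple-labelled seedlings, mostly PYK10 (means 28640 and 20890). Of the 6 root markers 2 were called lower and 4 were not called. Meristem markers summed to 742.5 and 544.9 in ddm1 and to 624.7 and 436.8 in triple-labelled seedlings. Of 7 tested, ANT was called lower and 6 were not called, and some of the 6, such as STM, had higher means. The part of these markers and genes in the falls of the 34 genes was not tested. Of 12 clock genes 9 fell and 1 rose. Of 14 listed genes of the DREAM complex 11 went up and none was called lower, with the smallest p in E2FC (2.02, limma-trend adjusted p = 9.2e-06). That list holds TCX6, which is among the 11, but not TCX5, which averaged 630.0 in ddm1 and 211.9 in triple-labelled seedlings. All 6 MCM helicase genes of DNA replication also went up, such as MCM3 (1.31, limma-trend adjusted p = 2.6e-05). Of 10 DNA methylation maintenance genes 8 rose and 1 fell, with the methyltransferase gene CMT3 at 2.39 (5.3e-06) and VIM2, which encodes a protein that binds methylated DNA, at 3.80 (8.9e-06).

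Near the limit of 0.6, the genes just inside were AT2G35130 (largest ratio of the 3 tissues 0.590), SAUR6 (0.591) and IAGLU (0.6). IAGLU read 2114 and 2560 in WT against 1345 and 1460 in tcx5/6 seedlings, and 1332 and 907.8 in ddm1 against 476.0 and 409.2 in triple-labelled seedlings. Just outside were the noncoding RNA AT5G18245 (0.602), the protein phosphatase gene AT5G02760 (0.603) and BLT (0.604), a gene of trichome branching. BLT read 124.7 and 162.1 in WT seedlings, 85.03 and 88.27 in tcx5/6 ones, 181.4 and 152.8 with ddm1 alone, and 54.79 and 37.55 in triple-labelled seedlings. AT5G18245 read 248.8 and 197.4, 112.4 and 117.2, 64.09 and 80.34, and 37.05 and 25.84 in the same order, and AT5G02760 read 2525 and 2491, 1388 and 1634, 2767 and 2044, and 1359 and 717.1. These 3 also lay lower in triple-labelled than in ddm1 seedlings, without overlap of the libraries, as did 41% of genes with a ddm1 mean of at least 50.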

How the data were processed

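Per the submitters' processing notes, the tools were HISAT2 and edgeR, on build TAIR10. No source used here gives versions, the counting tool, the annotation or the strand setting. The deposited values have the unit signal: counts brought by the authors to 1 common library size, 1 table for seedlings and 1 for leaf and SAM. Whole reads could not be recovered, so no count test was run. Values below 1e-06 were read as 0. Tables were not compared with each other.

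Members and lists were chosen with earlier results of these data known. The thresholds were applied to group means, with 9 genes left out by name. Each table was fitted with limma 3.58.1 (R 4.3.3, limma-trend, pseudocount 1, genes kept where 2 or more libraries reached a value of 1, all 8 libraries of the table, 1 coefficient per group), with fold changes on the log2(value + 1) scale, which understates those of low genes. Every member is named. Library values follow a rule: the 8 members lowest across tissues, up to 8 called lower and 8 higher by smallest p, the 3 highest and 3 lowest in ddm1 over WT, and 3 on either side of the limit, with up to 2 called genes per list. Some genes beyond the rule were added after their values were seen. Lists used are cold response, DREAM complex, MCM helicase, DNA methylation maintenance, photosynthesis, clock and the marker lists. Sequences and annotation are from TAIR10.1, read with Python 3.11.15, and figures were drawn with matplotlib 3.10.9. The fit was tested on simulated data. Alternatives were other pseudocounts, filters, scalings, thresholds, a fit of 2 groups, a replicate block and leaving out each library.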

Additional observations from a re-analysis of the deposited data

Results flagged for a closer look

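Of the 34 genes, 2 had tcx5/6 libraries below both WT libraries in seedlings while both triple-labelled libraries were above both ddm1 libraries. AT5G56370 was at log2 1.45 in triple-labelled against ddm1 seedlings, and SAUR6 (AT2G21210) at 1.15. The difference between the 2 backgrounds was not tested, since the genes were chosen by their values in the first.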

How the results depend on the processing

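With 2 libraries a group, the depth behind the values unknown and no counts, single-gene calls are imprecise. Of the 374 results of the 34 genes in triple-labelled against ddm1 seedlings under 11 alternatives, 347 kept their direction and side of the threshold, 18 lost a call, 6 gained one and 3 changed sign. The sign changes were in genes not called. AT4G14548 ranged from -0.29 to 0.12 without 1 library (0.12 without ddm1 replicate 1, 0.012 without triple-labelled replicate 1), and AT1G23970 from -0.091 (without triple-labelled replicate 1) to 0.57. The number called lower was 25, and 15 where an absolute log2 difference of at least 1 was also asked (7.04% of all genes). It ranged from 21 to 25 without 1 library. The number called higher was 2, and 1 with no filter on low values and with only ddm1 and triple-labelled libraries, and 1 to 2 without 1 library. The median log2 difference ranged from -1.29 to -0.85 without 1 library. At or below 0.5 instead of 0.6 of ddm1 were 15 of the 31 genes. The choice of the genes itself gave 11 at a ratio of 0.5, 123 at 0.7 and 18 with WT means of at least 200. Without 1 library it gave 31 to 43 genes, which held 27 to 34 of the 34.

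Replicate numbers did not pair the samples: deviations of same-numbered seedling libraries correlated at -0.026 to 0.089 over 18735 genes. With the number as a block, 26 genes were called lower and 2 higher, and UNE15 gained a call (limma-trend adjusted p = 0.048).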
